A study of Mus musculus with 9 samples.

Results

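Ephrins, semaphorins, netrins and Slits are ligands that steer migrating cells and growing axons, and their receptors are the Eph kinases, the plexins with the neuropilins, the Unc5 and DCC families, and the Robos. A list of 53 mouse genes of these families was looked up by symbol in a table of RNA sequencing counts, and 51 of them were found among its 19044 gene identifiers. The members comprised 5 A-type and 3 B-type ephrins, 6 EphA and 4 EphB receptors, 6 class 3 and 11 membrane-bound semaphorins, 8 plexins, 2 neuropilins, 2 netrins with the netrin receptor Unc5b, 2 Slits and Robo2. Ephb1 and Robo1 are not analysed here. The members were listed by family name, with earlier results of these data known. The list does not hold every gene of these families, and others are read separately below.

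RNA was measured in mouse squamous cell carcinoma (SCC) cells of 3 lines, with 3 libraries each. The parental cells came from skin tumours raised by chemical carcinogenesis in FVB mice with floxed alleles of FAK (focal adhesion kinase) and a K14CreER transgene, which places a tamoxifen-inducible Cre under a keratin promoter of basal skin cells. FAK-/- cells are a clone of these tumour cells in which both alleles were deleted in culture with 4-hydroxytamoxifen. FAK-WT and FAK-kd cells are that clone after retroviral delivery of wild-type FAK or of FAK without kinase activity, followed by hygromycin selection. All 3 lines therefore share the induced deletion and descend from 1 clone, and FAK-WT cells had lost and regained FAK. The replicates are described as biological, but nothing states how the cultures were separated, so p-values measure only the spread between these libraries.

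Ephrins are bound to the cell surface, A-type by a lipid anchor and B-type by a transmembrane segment, and they meet Eph receptor tyrosine kinases on a neighbouring cell, so that contact sends signals into both cells. Class 3 semaphorins are secreted and act through a neuropilin that binds the ligand and a plexin that signals, whereas the other classes are membrane-bound and mostly bind plexins directly. Netrins attract or repel through DCC and Unc5 receptors, Slits repel through Robos, and in skin and carcinomas these families are known for sorting cells, setting boundaries and altering migration at integrin adhesions, where FAK also works.

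The libraries held between 25304994 and 37264636 counts, except FAK-WT replicate 1 with 779755 counts, which was 2.31% of the median of the other 8. With 3 counts as the least that is told from none, a gene had to reach 3.78 counts per 1000000 (CPM, with TMM-scaled library sizes) in that library and 0.0798 to 0.118 CPM in the others, and such limits cover counting error only. FAK-/- replicate 3 deviated from the mean of all libraries in step with transcript GC content (Spearman 0.554 across genes), whereas the other 8 gave values from -0.179 to -0.0407. Ptk2, which encodes FAK, was read as a check of the labels and stood at 213, 216 and 216 CPM in FAK-WT, 21.8, 23.5 and 19.6 CPM in FAK-/- and 155, 158 and 176 CPM in FAK-kd libraries. Of 11 keratinocyte markers 7 were in the table and 3 averaged at least 1 CPM. Over all libraries the keratins Krt5 and Krt14 had 7 and 20 counts and the epithelial cadherin Cdh1 had 4, so these markers of the labelled epithelium were close to absent. Krt15, another keratin of the list, had 364 counts and averaged 0.175 CPM in FAK-WT, 1.67 CPM in FAK-/- and 1.925 CPM in FAK-kd cells. The summed keratinocyte markers, carried by the integrins Itga6 and Itgb4, were 228 to 243 CPM in FAK-WT, 366 to 387 CPM in FAK-/- and 349 to 357 CPM in FAK-kd libraries. The fibroblast markers, carried by Col3a1, summed to 1601 to 1694, 1318 to 1605 and 1384 to 1949 CPM, while Pdgfra of the same list averaged 11.1, 31.03 and 24.7 CPM. Endothelial markers reached 1.26 to 2.13 CPM in FAK-WT against 0.42 to 0.64 CPM in FAK-/- and 0.30 to 0.381 CPM in FAK-kd libraries, and none of the 5 in the table averaged 1 CPM over all libraries. Of these, Cdh5 averaged 1.49, 0.142 and 0.0195 CPM in FAK-WT, FAK-/- and FAK-kd cells, whereas Pecam1 (0.0769, 0.220 and 0.188 CPM), Tie1 (0.0362, 0.105 and 0.0397 CPM) and Tek (0.00961, 0.0331 and 0.0297 CPM) had their lowest mean in FAK-WT cells. Neuronal and glial markers, carried by Tubb3, summed to 34.8 to 39.0, 24.1 to 27.1 and 24.7 to 27.1 CPM, melanocyte markers, carried by Mitf, to 11.3 to 13.4, 14.3 to 17.1 and 15.1 to 16.8 CPM, and leukocyte and simple epithelial markers to at most 3.36 and 1.499 CPM in any library. The part of these markers in the differences described here was not tested.

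The guidance genes spanned several orders of magnitude. Of the 51 members, 36 averaged at least 1 CPM over all libraries, 29 had a read in every library, and Sema4f, Plxnb3, Plxnc1, Epha7 and Slit3 had 10 or fewer counts in the 9 libraries together. Per kilobase of the longest coding transcript, the mean level over all libraries was highest for the plexin Plxnb2 at 65.8 CPM per kilobase. It was followed by the Eph receptor Epha2 at 54.2, the repulsive ligand Sema3a at 45.7, Unc5b at 43.2, the neuropilin Nrp2 at 36.1 and Sema5a at 29.2 CPM per kilobase. The transmembrane ephrin Efnb2 (20.5) and its receptor Ephb4 (15.8), the integrin-binding Sema7a (19.0), Plxna1 (14.0) and Slit2 (11.7) came next, and no other member reached 10 CPM per kilobase. Transcripts of a ligand and a receptor were thus measured in each of the 4 systems, with Robo2, the Robo measured here, at 1.36 CPM per kilobase.

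**Figure D1:**
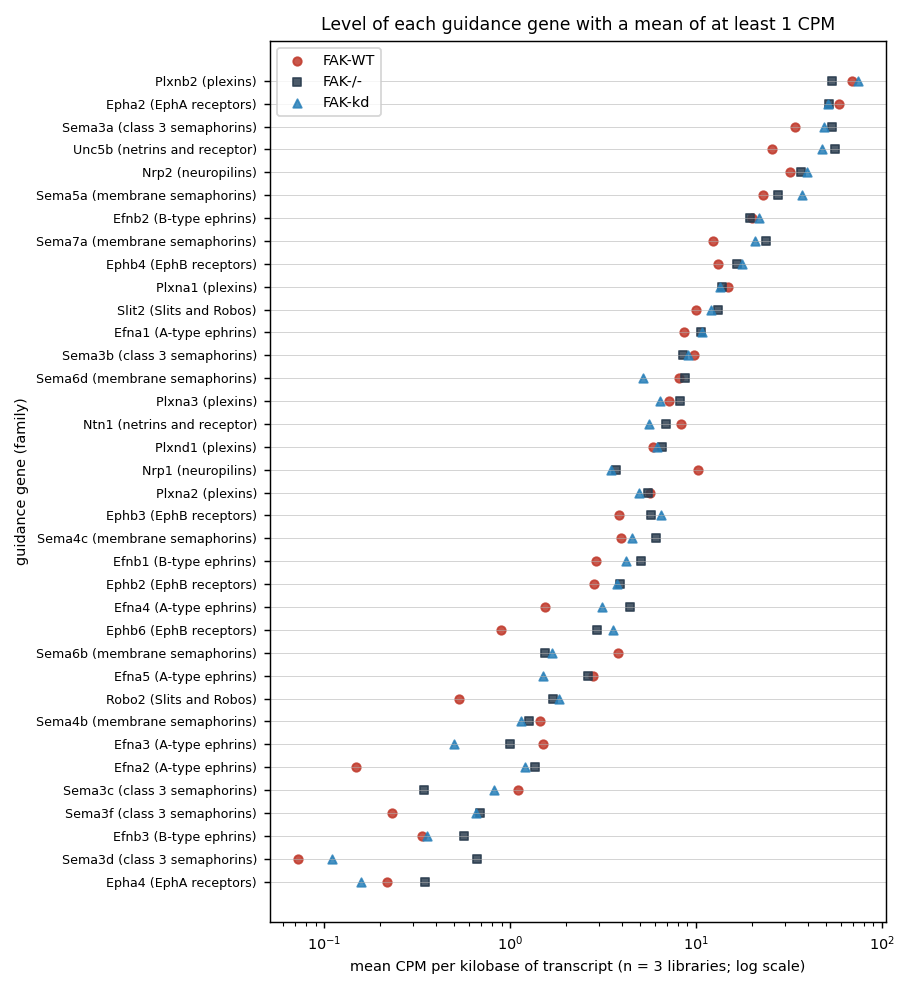
Mean level of the 36 guidance genes that averaged at least 1 CPM, in CPM per kilobase of transcript on a log axis, with 1 marker per cell line (n = 3 libraries each) and the family in brackets. Plxnb2, Epha2 and Sema3a lie furthest right, and the markers of Nrp1, Robo2, Ephb6 and Efna2 show the FAK-WT level apart from both other lines.

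The threshold combined an adjusted p (Benjamini-Hochberg, edgeR quasi-likelihood test over all 19044 genes) of at most 0.05 with a log2 fold change of 1 or more in size. It was passed by 18 members in at least 1 of the 3 comparisons, a count for which no share of all genes was taken. Between FAK-WT and FAK-/- cells, 5 members were higher in FAK-WT (9.8% of members, against a background of 2.32% of all genes) and 10 were lower (19.6%, against 3.06%). Among genes averaging at least 1 CPM, 10 of 36 members passed in either direction (27.8%, against 5.79% of 10912 genes). Between FAK-WT and FAK-kd cells, 5 members were higher (9.8%, against 2.37%) and 5 lower (9.8%, against 2.89%) in FAK-WT, and 7 of 36 passed among the genes of at least 1 CPM (19.4%, against 5.55%). Between FAK-kd and FAK-/- cells, 2 were higher (3.92%, against 0.914%) and 4 lower (7.84%, against 1.09%) in FAK-kd, and 4 of 36 passed (11.1%, against 2.31%). The comparisons share libraries, so their counts are not independent of each other. Without FAK-WT replicate 3, the counts against FAK-/- fell to 3 higher and 6 lower, and the higher count against FAK-kd to 3. The lower count of FAK-kd against FAK-/- cells was 2 without FAK-WT replicate 2 or 3, FAK-/- replicate 1, or FAK-kd replicate 1 or 3.

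The median log2 fold change of the 36 members averaging at least 1 CPM was -0.20 for FAK-WT over FAK-/- cells, where the 10912 genes of that level had a median of -0.02. It was -0.11 for FAK-WT over FAK-kd cells, against -0.02 for all genes, and -0.11 for FAK-kd over FAK-/- cells, against 0.01. With the adjusted p alone and no minimum fold, 23 members passed between FAK-WT and FAK-/- cells, 6 higher and 17 lower in FAK-WT, where 18% of all genes passed. The same count was 23 between FAK-WT and FAK-kd cells, 7 higher and 16 lower, where 17.7% of all genes passed, and 11 between FAK-kd and FAK-/- cells, 4 higher and 7 lower, where 7.84% passed. In these bulk libraries, fewer cells with a transcript and less transcript per cell cannot be told apart.

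**Figure D2:**
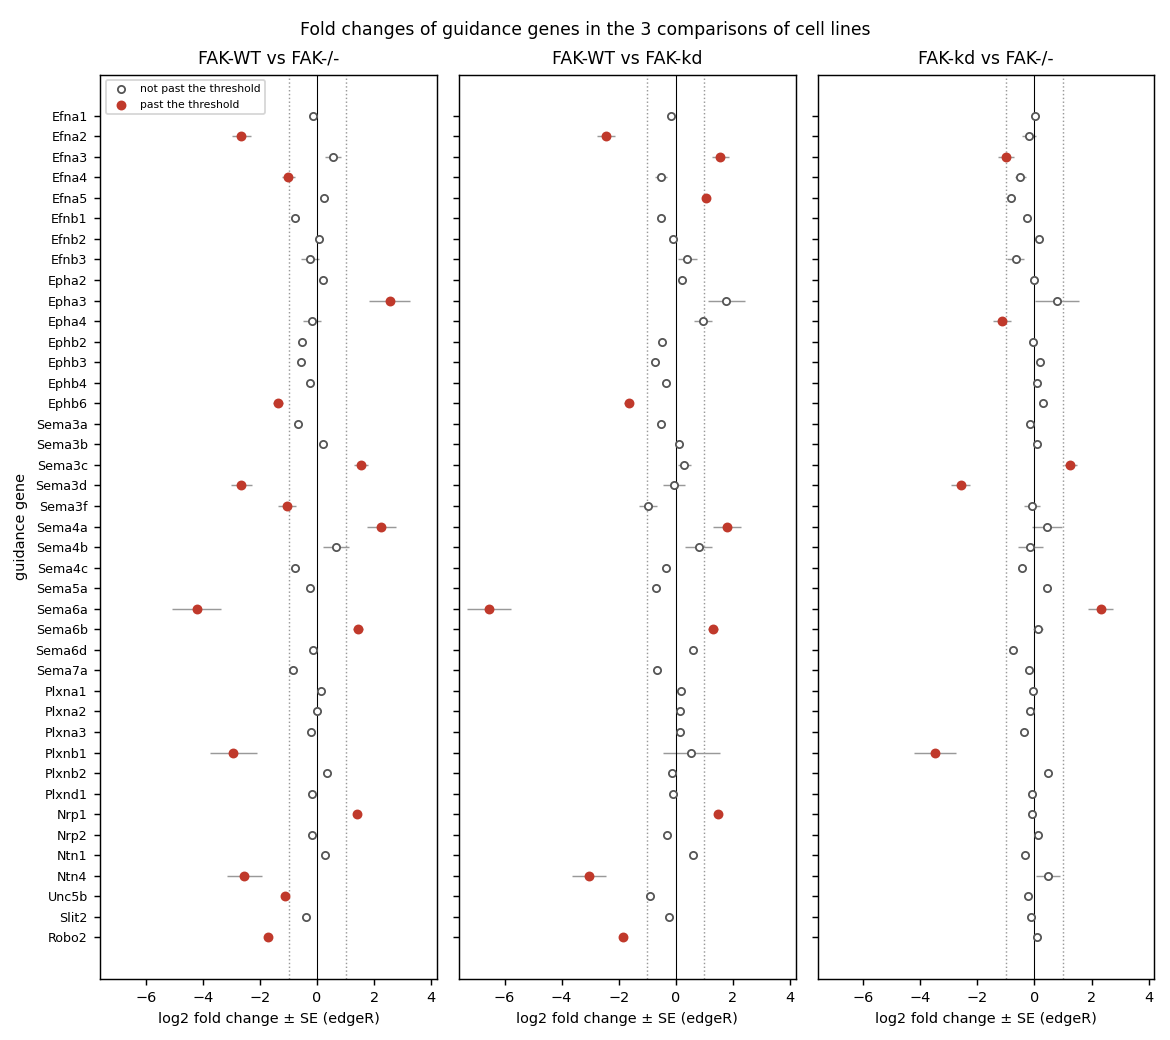
Log2 fold change of 41 guidance genes, those averaging at least 1 CPM and 5 lower ones past the threshold, in the 3 comparisons of cell lines, with horizontal bars for ± 1 standard error from edgeR (n = 3 libraries per line). Filled points passed the adjusted p of 0.05 and the log2 fold change of 1 marked by dotted lines. All 3 comparisons show filled points on both sides, with 6 in all for FAK-kd against FAK-/-.

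The sequence before the start site is shown for 4 of the genes past the threshold. These are Nrp1 and the genes with a motif match, Sema6b, Ephb6 and Plxnb1, and no other promoter of genes past the threshold held a match. AP-1, CREB and ETS factors, which respond to growth and adhesion signals, bind short motifs that can be read from such sequence. RefSeq promoters (GRCm38.p6) matched 45 members and 16 of the 18 past the threshold, with 23 promoters. The 250 bases before each start were searched on both strands for AP-1 (TGANTCA), the cyclic AMP response element CRE (TGACGTCA) and ETS (CCGGAAG), none of which contains another. Capitals mark a match. Nrp1 and Sema6b were higher and Ephb6 lower in FAK-WT than in both other lines, and Plxnb1 was higher in FAK-/- than in FAK-kd cells.
Nrp1 (chr8:128358823-128359072, + strand): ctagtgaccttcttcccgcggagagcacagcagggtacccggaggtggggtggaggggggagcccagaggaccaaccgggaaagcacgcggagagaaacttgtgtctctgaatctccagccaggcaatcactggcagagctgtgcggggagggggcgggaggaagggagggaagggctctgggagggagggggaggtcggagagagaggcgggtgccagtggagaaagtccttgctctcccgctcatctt
Sema6b (chr17:56133853-56134102, - strand): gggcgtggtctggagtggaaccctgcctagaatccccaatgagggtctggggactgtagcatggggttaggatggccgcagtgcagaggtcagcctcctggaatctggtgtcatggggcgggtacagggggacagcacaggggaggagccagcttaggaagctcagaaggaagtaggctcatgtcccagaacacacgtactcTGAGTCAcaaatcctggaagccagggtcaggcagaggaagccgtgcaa
Ephb6 (chr6:41605261-41605510, + strand): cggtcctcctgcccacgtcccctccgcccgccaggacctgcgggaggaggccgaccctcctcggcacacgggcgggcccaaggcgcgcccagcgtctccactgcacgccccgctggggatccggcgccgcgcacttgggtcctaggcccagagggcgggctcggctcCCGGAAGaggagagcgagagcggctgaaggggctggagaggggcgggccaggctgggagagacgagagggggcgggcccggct
Plxnb1 (chr9:109095186-109095435, + strand): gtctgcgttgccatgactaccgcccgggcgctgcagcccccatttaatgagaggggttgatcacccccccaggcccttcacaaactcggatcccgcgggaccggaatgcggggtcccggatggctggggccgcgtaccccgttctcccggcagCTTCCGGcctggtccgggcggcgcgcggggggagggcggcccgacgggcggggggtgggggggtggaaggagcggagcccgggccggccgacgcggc
An AP-1 match was found in 1 of the 23 promoters (4.35%), at -48 from this start of Sema6b, against 6.75% of all 32851 promoters. ETS matches were found in 2 (8.7%), at -83 of Ephb6 and -97 of Plxnb1, against 6.91%, and the CRE in 0 of 23, against 1.55%. The Nrp1 window held none of the 3 motifs. It lies before a RefSeq start inside the gene interval given below, and sequence before that interval was not searched. These shares describe letters in a window, and no binding was measured in these libraries.

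Among the A-type ephrins, which are ligands of EphA receptors, Efna1 was the most abundant per kilobase and passed in no comparison. Its levels were 10.1 to 17.2 CPM in FAK-WT, 15.3 to 19.7 CPM in FAK-/- and 17.1 to 18.2 CPM in FAK-kd libraries, with a log2 fold change of -0.15 ± 0.13 (SE) for FAK-WT over FAK-/- cells (edgeR, adjusted p = 0.475). Efna2 (ENSMUSG00000003070, chr10:80179482-80190010, + strand) was much lower in FAK-WT cells than in the others. It stood at 0, 0.426 and 0.519 CPM in FAK-WT replicates 1 to 3, 2.88, 2.25 and 3.62 CPM in FAK-/- and 2.55, 2.52 and 2.61 CPM in FAK-kd libraries. All FAK-WT libraries lay below all others without overlap, although the count of 0 in FAK-WT replicate 1 allows up to 3.78 CPM, here and for every gene below that is at 0 in this library. Other values of that library also rest on few counts, such as 1 for Ephb6, 3 for Efna3, 4 for Robo2, 6 for Sema3c and 8 for Sema6b. The log2 fold change of Efna2 in edgeR was -2.65 ± 0.32 (adjusted p = 2.38e-05) against FAK-/- and -2.46 ± 0.32 (adjusted p = 4.89e-05) against FAK-kd cells, and FAK-kd and FAK-/- cells overlapped at -0.19 ± 0.24 (adjusted p = 0.695).

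Efna4 (ENSMUSG00000028040, chr3:89333390-89338028, - strand) was also lowest in FAK-WT cells. Its levels were 0, 3.96 and 3.40 CPM in FAK-WT, 7.19, 6.54 and 7.46 CPM in FAK-/- and 4.89, 5.15 and 5.04 CPM in FAK-kd libraries, which puts FAK-kd between the others without overlap. The log2 fold change of FAK-WT over FAK-/- cells was -1.01 ± 0.23 (adjusted p = 0.00505) in edgeR, just past the fold minimum, and those of FAK-WT over FAK-kd and FAK-kd over FAK-/- cells were -0.52 ± 0.23 (adjusted p = 0.14) and -0.49 ± 0.20 (adjusted p = 0.171). The first value missed the minimum at -0.94 without FAK-WT replicate 1, -0.98 without FAK-WT replicate 3, -0.99 without FAK-/- replicate 1 and -0.95 without FAK-/- replicate 3, and was -0.89 after a correction for GC content, and the call was also lost after filterByExpr.

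Efna3 and Efna5 had their lowest levels in FAK-kd cells. Efna3 (ENSMUSG00000028039, chr3:89313899-89322965, - strand) was measured at 3.78, 3.19 and 3.72 CPM in FAK-WT, 2.43, 1.74 and 2.91 CPM in FAK-/- and 0.809, 1.498 and 1.23 CPM in FAK-kd libraries, so that each line was separate from the next. It was higher in FAK-WT than in FAK-kd cells by 1.56 ± 0.29 (adjusted p = 0.00133) on the log2 scale in edgeR and lower in FAK-kd than in FAK-/- cells at -1.002 ± 0.28 (adjusted p = 0.0373), while FAK-WT over FAK-/- gave 0.56 ± 0.28 (adjusted p = 0.216). The call between FAK-kd and FAK-/- cells sat at the fold minimum and was lost without FAK-WT replicate 2 (-1.01, adjusted p = 0.0633) or 3 (-1.01, adjusted p = 0.0657), FAK-/- replicate 1 (-0.99) or 3 (-0.83), or FAK-kd replicate 1 (-0.80) or 3 (-1.04, adjusted p = 0.126), and at -0.89 with the GC correction. It was also lost in DESeq2 (adjusted p = 0.0573) and in an edgeR fit of the groups compared alone (adjusted p = 0.081). Efna5 (ENSMUSG00000048915, chr17:62604184-62881317, - strand) was at 7.55, 12.9 and 13.2 CPM in FAK-WT, 11.1, 11.0 and 9.83 CPM in FAK-/- and 5.996, 6.77 and 5.45 CPM in FAK-kd libraries. The FAK-kd libraries lay below all others, whereas FAK-WT and FAK-/- libraries overlapped. The log2 fold change of FAK-WT over FAK-kd cells was 1.05 ± 0.14 (adjusted p = 7.25e-05) in edgeR, which became 0.99 without FAK-WT replicate 3 and 0.99 without FAK-kd replicate 3, and that of FAK-kd over FAK-/- cells was -0.81 ± 0.13 (adjusted p = 0.00132), under the fold minimum.

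The B-type ephrins stayed under the fold minimum. Efnb2, a ligand of Ephb4 known from vessel and epithelial boundaries, was the most abundant ephrin per kilobase, at 95.8 ± 6.67 CPM in FAK-WT, 93.9 ± 1.37 CPM in FAK-/- and 104 ± 5.52 CPM in FAK-kd cells (mean ± SD, n = 3, as for all such values). Its log2 fold change was 0.06 ± 0.07 (adjusted p = 0.624) for FAK-WT over FAK-/- and -0.10 ± 0.07 (adjusted p = 0.433) for FAK-WT over FAK-kd cells in edgeR. Efnb1 was lower in every FAK-WT library (8.81 to 9.80 CPM) than in any FAK-/- (14.1 to 20.01 CPM) or FAK-kd library (13.0 to 14.1 CPM). Its log2 fold changes in edgeR were -0.77 ± 0.13 (adjusted p = 0.000725) and -0.50 ± 0.13 (adjusted p = 0.015), past the adjusted p limit and short of the fold minimum. Efnb3 averaged under 2 CPM in each line and missed the adjusted p limit, with adjusted p = 0.649, 0.468 and 0.234 in edgeR for the 3 comparisons in the order given above.

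Of the Eph receptors, Epha2, a receptor of A-type ephrins that is widely expressed in epithelia and carcinomas, was the highest per kilobase, at 231 ± 7.18 CPM in FAK-WT, 203 ± 29.9 CPM in FAK-/- and 202 ± 5.68 CPM in FAK-kd cells. On the log2 scale it differed by 0.19 ± 0.09 (adjusted p = 0.173), 0.20 ± 0.09 (adjusted p = 0.153) and -0.01 ± 0.09 (adjusted p = 1) in edgeR for FAK-WT over FAK-/-, FAK-WT over FAK-kd and FAK-kd over FAK-/- cells. The other EphA receptors were rare. Epha4 (ENSMUSG00000026235, chr1:77367185-77515088, - strand), which binds ephrins of both types, was at 0, 2.02 and 2.10 CPM in FAK-WT, 2.37, 2.40 and 1.86 CPM in FAK-/- and 1.17, 0.959 and 0.878 CPM in FAK-kd libraries. The FAK-kd libraries lay below the FAK-/- libraries, with a log2 fold change of -1.14 ± 0.31 (adjusted p = 0.033) in edgeR, and the FAK-WT libraries overlapped with those of both other lines. This call was lost in 7 of the 9 fits with 1 library left out, those without FAK-WT replicate 2 or 3, FAK-/- replicate 1 or 2, or any FAK-kd replicate, with log2 fold changes from -1.27 to -1.06 and adjusted p up to 0.161, and in DESeq2 (adjusted p = 0.0872).

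Epha3 (ENSMUSG00000052504, chr16:63543534-63864175, - strand) was called higher in FAK-WT cells against FAK-/- cells on very few reads. It had 21 counts in the FAK-WT libraries together and 4 in the FAK-/- libraries, and its levels were 0, 0.266 and 0.317 CPM in FAK-WT, 0.0300, 0.0394 and 0.0640 CPM in FAK-/- and 0.0899, 0.0599 and 0.0878 CPM in FAK-kd libraries. The shallow FAK-WT replicate 1 was at 0 and the other FAK-WT libraries lay above all 6 libraries of the other lines. The ratio of pooled levels was 6.47 (95% exact counting interval 2.18 to 25.9, 21 against 4 counts), and edgeR gave 2.55 ± 0.72 (adjusted p = 0.022) against FAK-/- and 1.77 ± 0.66 (adjusted p = 0.0797) against FAK-kd cells. The first call was lost without FAK-WT replicate 2 (2.62, adjusted p = 0.079), FAK-WT replicate 3 (2.38, adjusted p = 0.122), FAK-/- replicate 1 (2.34, adjusted p = 0.078) or FAK-/- replicate 2 (2.50, adjusted p = 0.0576). Epha1, Epha5 and Epha7 averaged under 1 CPM in each line and passed in no comparison.

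For each of the 4 EphB receptors, partners of B-type ephrins, all FAK-WT libraries lay below all libraries of both other lines. Members of other families, such as Efnb1, Sema3a, Nrp2 and Slit2, had the same order, and the share of all genes with it was not counted. Of the 4 EphB receptors, Ephb6 (ENSMUSG00000029869, chr6:41605482-41620509, + strand), which lacks kinase activity of its own, was the one past the fold minimum. It stood at 1.26, 4.52 and 4.27 CPM in FAK-WT, 10.9, 9.54 and 12.8 CPM in FAK-/- and 12.6, 13.6 and 14.3 CPM in FAK-kd libraries. The highest FAK-WT library was below the lowest of the others, although the value in FAK-WT replicate 1 is 1 count. FAK-/- and FAK-kd libraries overlapped. In edgeR the fold change on the log2 scale was -1.37 ± 0.16 (adjusted p = 2.17e-05) against FAK-/- and -1.66 ± 0.16 (adjusted p = 3.32e-06) against FAK-kd cells, with 0.29 ± 0.14 (adjusted p = 0.258) between FAK-kd and FAK-/- cells.

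Ephb2, Ephb3 and Ephb4 were more abundant and differed by less. Ephb4, the highest of them, was at 45.3, 63.8 and 62.7 CPM in FAK-WT, 70.0, 67.1 and 78.4 CPM in FAK-/- and 70.8, 79.9 and 79.6 CPM in FAK-kd libraries, with log2 fold changes of -0.24 ± 0.10 (adjusted p = 0.116) against FAK-/- and -0.33 ± 0.10 (adjusted p = 0.0276) against FAK-kd cells in edgeR. Ephb2 gave -0.54 ± 0.11 (adjusted p = 0.00201) and -0.49 ± 0.11 (adjusted p = 0.00438), and Ephb3 gave -0.55 ± 0.12 (adjusted p = 0.00505) and -0.73 ± 0.12 (adjusted p = 0.000543), in the same order. The summed keratinocyte markers given above were lower in FAK-WT libraries as well, and their part in these values was not tested.

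Class 3 semaphorins, the secreted ligands of neuropilins and plexins, moved in different directions. Sema3c (ENSMUSG00000028780, chr5:17574281-17730268, + strand), known from heart and vessel development, was lowest in FAK-/- cells. It was at 7.55, 5.32 and 5.25 CPM in FAK-WT, 1.98, 2.40 and 1.28 CPM in FAK-/- and 4.47, 4.70 and 4.28 CPM in FAK-kd libraries. Both FAK-expressing lines lay above the FAK-/- libraries without overlap, with log2 fold changes of 1.54 ± 0.24 (adjusted p = 0.000269) for FAK-WT and 1.25 ± 0.22 (adjusted p = 0.00238) for FAK-kd over FAK-/- cells in edgeR. FAK-WT over FAK-kd cells gave 0.29 ± 0.23 (adjusted p = 0.464).

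Sema3d (ENSMUSG00000040254, chr5:12383385-12588948, + strand) showed the reverse order and was highest in FAK-/- cells. Its levels were 0, 0.612 and 0.750 CPM in FAK-WT, 4.58, 5.40 and 2.59 CPM in FAK-/- and 0.600, 0.569 and 0.908 CPM in FAK-kd libraries. Every FAK-/- library was above every other library, and FAK-WT and FAK-kd libraries overlapped. EdgeR gave a log2 fold change of -2.66 ± 0.38 (adjusted p = 0.000122) for FAK-WT and -2.59 ± 0.33 (adjusted p = 0.000135) for FAK-kd over FAK-/- cells, and -0.07 ± 0.39 (adjusted p = 0.953) for FAK-WT over FAK-kd cells.

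Sema3f (ENSMUSG00000034684, chr9:107681500-107710475, - strand), a ligand that prefers Nrp2, was at 0, 1.22 and 1.12 CPM in FAK-WT, 2.91, 1.66 and 2.43 CPM in FAK-/- and 2.37, 2.46 and 1.84 CPM in FAK-kd libraries. The FAK-WT libraries lay below both other lines. Its log2 fold change was -1.05 ± 0.32 (adjusted p = 0.0348) against FAK-/- and -0.98 ± 0.32 (adjusted p = 0.0491) against FAK-kd cells in edgeR, so that the first value passed and the second missed the fold minimum. The call rested on single libraries and was lost without FAK-WT replicate 1 (-0.99), 2 (-1.16) or 3 (-1.05), FAK-/- replicate 1 (-0.85), or FAK-kd replicate 1 (-1.04), 2 (-1.05) or 3 (-1.05). It was also lost with the GC correction (-0.89, adjusted p = 0.0551), in a fit of the groups compared alone (adjusted p = 0.0851) and in DESeq2 (adjusted p = 0.0984).

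Sema3a, the prototype repellent that binds Nrp1, was the most abundant semaphorin per kilobase and averaged 202 ± 7.71 CPM in FAK-WT, 321 ± 55.9 CPM in FAK-/- and 290.4 ± 12.9 CPM in FAK-kd cells. Every FAK-WT library lay below every other library, and the log2 fold changes of -0.67 ± 0.11 (adjusted p = 0.000313) and -0.52 ± 0.10 (adjusted p = 0.00225) against FAK-/- and FAK-kd cells in edgeR were under the fold minimum. Sema3b differed by 0.20 ± 0.10 (adjusted p = 0.194) and 0.10 ± 0.10 (adjusted p = 0.526) in the same order, and Sema3e averaged under 1 CPM in each line.

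The membrane-bound semaphorins held the log2 fold change of greatest size among the members. Sema6a (ENSMUSG00000019647, chr18:47235598-47368870, - strand), a transmembrane ligand of A-type plexins, had 1 count in the FAK-WT libraries together, 29 in the FAK-/- and 169 in the FAK-kd libraries. Its levels were 0, 0 and 0.0288 CPM in FAK-WT, 0.180, 0.552 and 0.288 CPM in FAK-/- and 1.17, 2.01 and 1.84 CPM in FAK-kd libraries, and the 3 lines did not overlap. The pooled level was higher in FAK-/- than in FAK-WT cells by a ratio of 23.5 (95% exact counting interval 3.90 to 962, 29 against 1 counts) and higher in FAK-kd than in FAK-WT cells by 122 (95% exact counting interval 21.7 to 4861, 169 against 1 counts). In edgeR the log2 fold changes were -4.22 ± 0.87 (adjusted p = 0.00282) for FAK-WT over FAK-/-, -6.54 ± 0.77 (adjusted p = 1.83e-05) for FAK-WT over FAK-kd and 2.32 ± 0.44 (adjusted p = 0.00363) for FAK-kd over FAK-/- cells. The fitted values depended on the lone count, and those against FAK-/- and FAK-kd were -3.36 and -5.67 without FAK-WT replicate 2, and -6.27 and -8.58 without FAK-WT replicate 3, each past the threshold.

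Sema6b (ENSMUSG00000001227, chr17:56123085-56140343, - strand), another transmembrane semaphorin that binds A-type plexins, went the other way. It was at 10.1, 17.3 and 15.2 CPM in FAK-WT, 5.00, 4.77 and 7.55 CPM in FAK-/- and 6.63, 6.83 and 5.50 CPM in FAK-kd libraries. All FAK-WT libraries lay above all others, with log2 fold changes of 1.43 ± 0.19 (adjusted p = 5.15e-05) and 1.31 ± 0.18 (adjusted p = 0.000109) in edgeR, and FAK-kd and FAK-/- libraries overlapped. The AP-1 match shown above lies before a RefSeq start inside the gene, and the window before its upstream start, chr17:56140344-56140593, had no match.

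Sema4a (ENSMUSG00000028064, chr3:88435959-88461182, - strand), known for roles in immune cells, was low but passed in both comparisons with FAK-WT. It was at 0, 0.692 and 0.779 CPM in FAK-WT, 0.120, 0.118 and 0.192 CPM in FAK-/- and 0.150, 0.180 and 0.264 CPM in FAK-kd libraries. FAK-WT replicates 2 and 3 lay above all libraries of the other lines, and FAK-WT replicate 1 had no read. The log2 fold changes in edgeR were 2.24 ± 0.51 (adjusted p = 0.00598) and 1.80 ± 0.49 (adjusted p = 0.0174). The first was lost without FAK-WT replicate 3 (2.09, adjusted p = 0.0572), and the second without FAK-WT replicate 2 (1.81, adjusted p = 0.0883) or 3 (1.65, adjusted p = 0.126), or without FAK-kd replicate 1 (1.66, adjusted p = 0.0557) or 2 (1.75, adjusted p = 0.0618). In DESeq2 both calls were lost (adjusted p = 0.096 and 0.198).

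The abundant membrane-bound semaphorins differed by less than the fold minimum. Sema5a, a transmembrane semaphorin with thrombospondin repeats, was at 242, 252 and 250.2 CPM in FAK-WT, 304, 318 and 274 CPM in FAK-/- and 338, 412 and 452 CPM in FAK-kd libraries, and the 3 lines did not overlap. Its log2 fold changes in edgeR were -0.26 ± 0.10 (adjusted p = 0.0705) for FAK-WT over FAK-/-, -0.69 ± 0.10 (adjusted p = 9.73e-05) for FAK-WT over FAK-kd and 0.42 ± 0.09 (adjusted p = 0.00974) for FAK-kd over FAK-/- cells. Sema7a, which is lipid-anchored and binds integrins, was at 31.5, 46.3 and 43.8 CPM in FAK-WT, 76.0, 75.3 and 85.1 CPM in FAK-/- and 65.5, 71.6 and 69.5 CPM in FAK-kd libraries, all FAK-WT libraries being lowest, with -0.86 ± 0.10 (adjusted p = 1.28e-05) and -0.66 ± 0.10 (adjusted p = 0.000149) for FAK-WT over FAK-/- and FAK-kd cells. Sema6d, a ligand of Plxna1, was lowest in FAK-kd cells at 34.3, 34.1 and 31.9 CPM, with 55.4, 50.5 and 50.4 CPM in FAK-WT and 54.4, 59.1 and 54.5 CPM in FAK-/- libraries. It gave 0.61 ± 0.09 (adjusted p = 0.000108) for FAK-WT over FAK-kd and -0.74 ± 0.08 (adjusted p = 3.03e-05) for FAK-kd over FAK-/- cells.

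Sema4c, a ligand of Plxnb2, gave -0.78 ± 0.13 (adjusted p = 0.000528) for FAK-WT over FAK-/- cells in edgeR, past the adjusted p limit and short of the fold minimum, and -0.35 ± 0.13 (adjusted p = 0.0833) against FAK-kd cells. Sema4b spread widely within each line, from 0 to 8.94 CPM in FAK-WT, 2.72 to 8.78 CPM in FAK-/- and 2.52 to 7.61 CPM in FAK-kd libraries, and passed in no comparison. Sema4d and Sema4g averaged under 1 CPM in each line and passed in no comparison, and Sema4f had a single count.

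Among the receptors of semaphorins, Nrp1 (ENSMUSG00000025810, chr8:128358604-128503363, + strand), the neuropilin that binds Sema3a and VEGF, was higher in FAK-WT cells than in both others. It was at 41.5, 33.9 and 34.6 CPM in FAK-WT, 13.0, 13.6 and 13.4 CPM in FAK-/- and 14.2, 11.4 and 12.0 CPM in FAK-kd libraries. All FAK-WT libraries lay above all others, and FAK-/- and FAK-kd libraries overlapped. EdgeR put its log2 fold change at 1.40 ± 0.11 (adjusted p = 2.55e-07) against FAK-/- and 1.49 ± 0.11 (adjusted p = 1.28e-07) against FAK-kd cells, and -0.09 ± 0.10 (adjusted p = 0.648) for FAK-kd over FAK-/- cells. Both calls held in every alternative run, with log2 fold changes from 1.35 to 1.45 and from 1.43 to 1.60. Of the endothelial markers given above Cdh5 was higher in FAK-WT cells too, whereas Pecam1, Tie1 and Tek had their lowest mean there, and their part in this result was not tested. Nrp2, which prefers Sema3f and is the more abundant neuropilin per kilobase, was at 215 ± 14.6 CPM in FAK-WT, 246 ± 5.54 CPM in FAK-/- and 267 ± 12.6 CPM in FAK-kd cells, with -0.17 ± 0.07 (adjusted p = 0.105) and -0.29 ± 0.07 (adjusted p = 0.00723) for FAK-WT over FAK-/- and FAK-kd cells.

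The plexins, which pass the semaphorin signal to small GTPases, had 1 member past the threshold, Plxnb1. Plxnb2, a receptor of class 4 semaphorins, was the highest per kilobase, at 466, 445 and 429.9 CPM in FAK-WT, 333, 341 and 382 CPM in FAK-/- and 479, 477 and 496 CPM in FAK-kd libraries. The FAK-/- libraries were the lowest, with 0.34 ± 0.07 (adjusted p = 0.00278) for FAK-WT and 0.46 ± 0.07 (adjusted p = 0.000487) for FAK-kd over FAK-/- cells in edgeR. Plxna1, Plxna2, Plxna3 and Plxnd1, the partners of neuropilins and of Sema6 ligands, averaged between 40.5 and 134 CPM in FAK-WT cells, and none of their log2 fold changes exceeded 0.36 in size.

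Plxnb1 (ENSMUSG00000053646, chr9:109095389-109119917, + strand), the receptor of Sema4d, was rare. It was at 1.26, 0.106 and 0.0288 CPM in FAK-WT, 0.659, 0.868 and 0.608 CPM in FAK-/- and 0.0899, 0 and 0.0878 CPM in FAK-kd libraries, where the first FAK-WT value is a single count. FAK-WT replicates 2 and 3 and all FAK-kd libraries lay below all FAK-/- libraries. The pooled level in FAK-/- cells was higher by a ratio of 8.53 (95% exact counting interval 3.71 to 24.1, 63 against 6 counts) than in FAK-WT and of 11.8 (95% exact counting interval 5.12 to 33.3, 63 against 6 counts) than in FAK-kd cells. In edgeR the log2 fold changes were -2.94 ± 0.82 (adjusted p = 0.0202) for FAK-WT and -3.49 ± 0.74 (adjusted p = 0.00804) for FAK-kd over FAK-/- cells, and the first was lost without FAK-WT replicate 2 (-3.29, adjusted p = 0.109) or 3 (-2.17, adjusted p = 0.199) and in DESeq2 (adjusted p = 0.143). Plxnb3 and Plxnc1 had too few counts to compare.

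**Figure D3:**
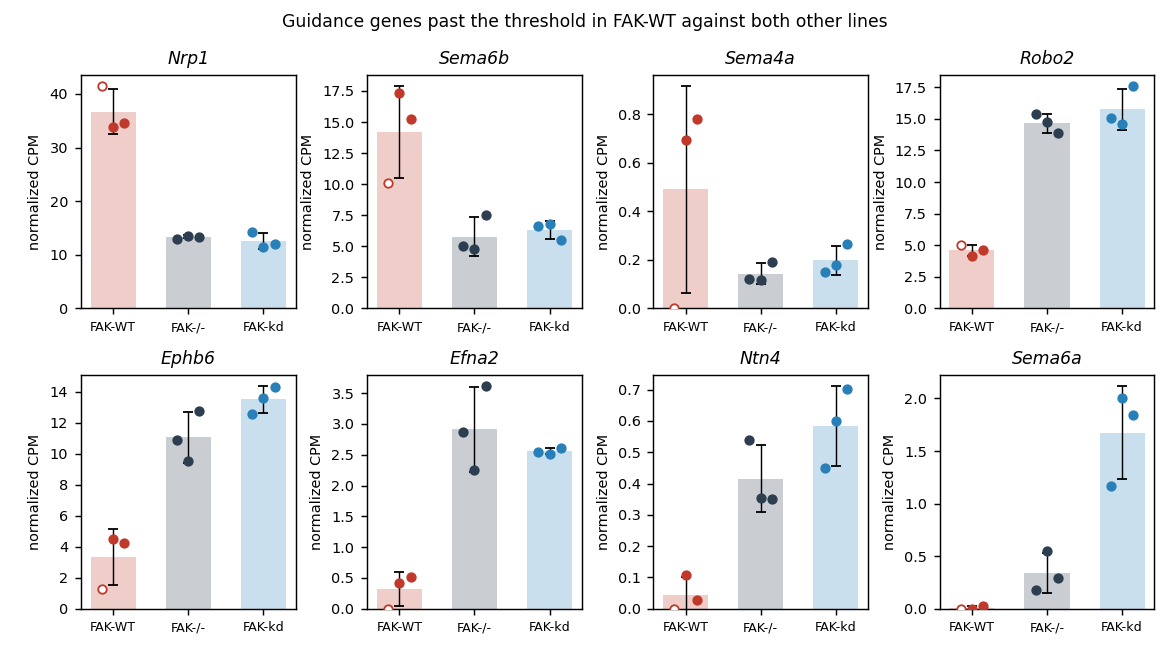
Normalized CPM per library for the 8 guidance genes past the threshold in FAK-WT against both FAK-/- and FAK-kd cells, with bars for the mean and error bars for the SD (n = 3 libraries), and FAK-WT replicate 1, the shallow library, as an open point. Nrp1, Sema6b and Sema4a have their highest bar in FAK-WT cells, and Robo2, Ephb6, Efna2, Ntn4 and Sema6a their lowest.

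Unc5b (ENSMUSG00000020099, chr10:60762593-60831581, - strand), a receptor through which netrin repels and which is known to trigger death of cells that lack the ligand, was lower in FAK-WT cells than in the others. It was at 146, 156 and 148 CPM in FAK-WT, 313, 309 and 368 CPM in FAK-/- and 300.0, 269 and 273 CPM in FAK-kd libraries. All FAK-WT libraries lay below all others. The log2 fold change was -1.13 ± 0.08 (adjusted p = 1.27e-07) against FAK-/- and -0.90 ± 0.08 (adjusted p = 1.56e-06) against FAK-kd cells in edgeR, the second under the fold minimum, while FAK-kd over FAK-/- cells gave -0.23 ± 0.08 (adjusted p = 0.0858). After correction for GC content the first became -0.96, also under the minimum.

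Its ligand Ntn1 was at 45.3, 51.9 and 48.7 CPM in FAK-WT, 38.6, 39.0 and 44.2 CPM in FAK-/- and 27.0, 36.1 and 34.8 CPM in FAK-kd libraries. Every FAK-WT library was above every other, and every FAK-kd library below every other. Its log2 fold changes in edgeR were 0.29 ± 0.12 (adjusted p = 0.108) against FAK-/- and 0.60 ± 0.12 (adjusted p = 0.00169) against FAK-kd cells. Ntn4 (ENSMUSG00000020019, chr10:93640681-93747207, + strand), a netrin of basement membranes that binds laminin, was rare and lowest in FAK-WT cells. It was at 0, 0.106 and 0.0288 CPM in FAK-WT, 0.539, 0.355 and 0.352 CPM in FAK-/- and 0.450, 0.599 and 0.703 CPM in FAK-kd libraries. All FAK-WT libraries lay below all others. The pooled level was higher in FAK-/- than in FAK-WT cells by a ratio of 6.17 (95% exact counting interval 2.42 to 20.1, 38 against 5 counts) and in FAK-kd cells by 8.54 (95% exact counting interval 3.46 to 27.3, 59 against 5 counts). In edgeR the log2 fold changes were -2.55 ± 0.61 (adjusted p = 0.00826) and -3.03 ± 0.60 (adjusted p = 0.00202). Without FAK-WT replicate 2 they were -3.69 and -4.16, and without FAK-WT replicate 3 they were -1.97 (adjusted p = 0.114), which ended the first call, and -2.44 (adjusted p = 0.0434). The first call was also lost in DESeq2 (adjusted p = 0.0717).

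Robo2 (ENSMUSG00000052516, chr16:73891839-74411825, - strand), a receptor through which Slits repel, was lower in FAK-WT cells than in both others. It was at 5.04, 4.12 and 4.61 CPM in FAK-WT, 15.4, 14.8 and 13.9 CPM in FAK-/- and 15.1, 14.6 and 17.6 CPM in FAK-kd libraries. All FAK-WT libraries lay below all others, and FAK-/- and FAK-kd libraries overlapped. Its log2 fold change in edgeR was -1.74 ± 0.13 (adjusted p = 1.4e-07) against FAK-/- and -1.84 ± 0.13 (adjusted p = 7.1e-08) against FAK-kd cells, and both calls held in every alternative that could test the gene, with values from -1.82 to -1.65 and from -1.90 to -1.74. Slit2, a repellent ligand of Robos, was at 100.1 ± 4.46 CPM in FAK-WT, 131 ± 7.80 CPM in FAK-/- and 119.6 ± 9.80 CPM in FAK-kd cells, with -0.38 ± 0.08 (adjusted p = 0.00356) and -0.25 ± 0.08 (adjusted p = 0.0449). Slit3 had 9 counts in all and passed in no comparison.

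**Figure D4:**
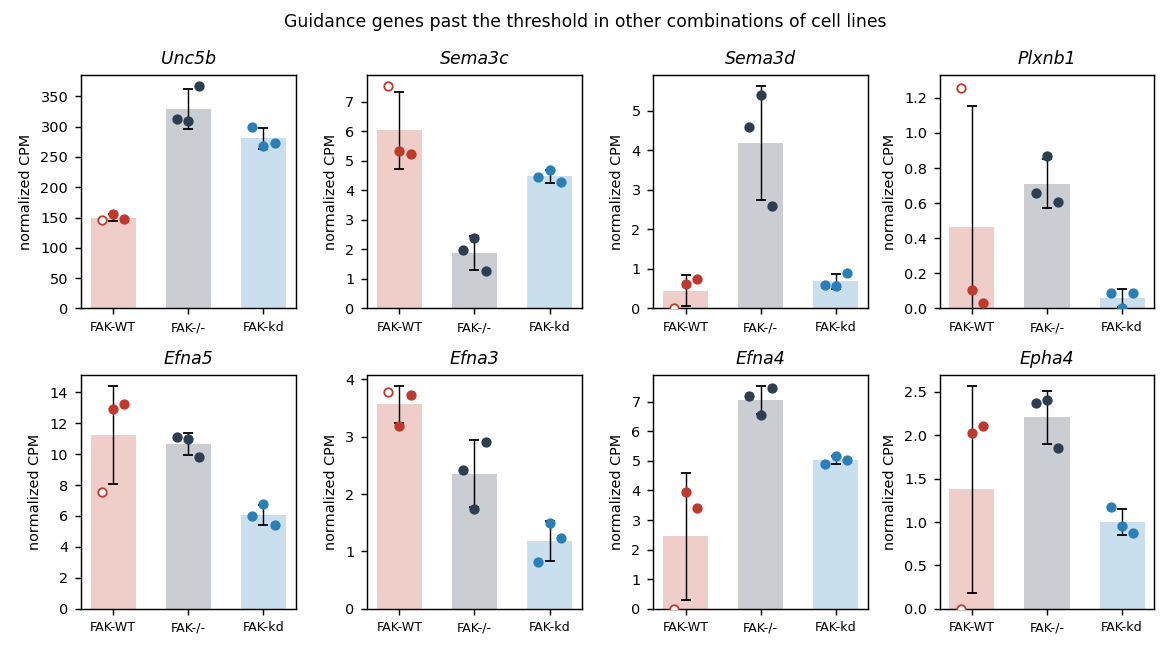
Normalized CPM per library for 8 guidance genes past the threshold in other combinations of the 3 comparisons, with bars for the mean, error bars for the SD (n = 3 libraries) and FAK-WT replicate 1 as an open point. Sema3d and, apart from the single count in FAK-WT replicate 1, Plxnb1 are high in FAK-/- libraries, Sema3c is low there, Efna3, Efna5 and Epha4 are low in FAK-kd libraries, and Unc5b and Efna4 are low in FAK-WT libraries.

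Set side by side, Nrp1, Sema6b and Sema4a were higher and Robo2, Ephb6, Efna2, Ntn4 and Sema6a lower in FAK-WT than in both other lines, which makes 8 members called in the same direction in comparisons that share the FAK-WT libraries. The share of all genes called in both of these comparisons was not counted. In DESeq2 both Sema4a calls and that of Ntn4 against FAK-/- cells were not made. Between FAK-kd and FAK-/- cells the members past the threshold were Sema6a and Sema3c, which were higher in FAK-kd, and Sema3d, Plxnb1, Epha4 and Efna3, which were lower.

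Further genes of the same families and the molecules that carry their signals were read from 3 other lists. Of 30 other family members and semaphorin receptors, 27 were in the table and 9 averaged at least 1 CPM. Past the threshold, 1 was higher and 2 were lower for FAK-WT against FAK-/-, 3 and 2 for FAK-WT against FAK-kd, and 0 and 1 for FAK-kd against FAK-/- cells. As shares of the list these were 3.7% and 7.41%, 11.1% and 7.41%, and 0% and 3.7%. All genes gave 2.32% and 3.06%, 2.37% and 2.89%, and 0.914% and 1.09%. For FAK-kd against FAK-/- cells, 2 were higher at an unadjusted p under 0.05 in edgeR (7.41%, against 10.2% of all genes) and 0 were higher past the threshold in DESeq2. Ntng1, a membrane-anchored relative of the netrins, was at 0, 0.293 and 0.663 CPM in FAK-WT, 4.70, 5.24 and 4.10 CPM in FAK-/- and 0.809, 1.26 and 0.996 CPM in FAK-kd libraries. The 3 lines did not overlap, with log2 fold changes in edgeR of -3.32 ± 0.36 (adjusted p = 9.21e-06) for FAK-WT over FAK-/-, -2.19 ± 0.29 (adjusted p = 0.000204) for FAK-kd over FAK-/- and -1.13 ± 0.37 (adjusted p = 0.0448) for FAK-WT over FAK-kd cells. The last was lost without FAK-WT replicate 2 (-0.68), FAK-/- replicate 1 (-1.12) or 2 (-1.12), or FAK-kd replicate 2 (-0.94) or 3 (-1.13), in a fit of the groups compared alone (adjusted p = 0.0767), with library size alone (adjusted p = 0.0502) and in DESeq2 (adjusted p = 0.102). Itga1, the collagen-binding integrin subunit that Sema7a can engage, was at 1.26, 2.08 and 2.54 CPM in FAK-WT and 7.94, 9.42 and 6.43 CPM in FAK-/- libraries, with -1.80 ± 0.24 (adjusted p = 6.94e-05). The remaining calls were Unc5c (higher in FAK-WT than in both), Ntng2 and Robo3 (higher than in FAK-kd) and Sema6c (lower than in FAK-kd), which were named after their values were seen and each averaged under 1 CPM over all libraries. Unc5c against FAK-/- cells was kept in DESeq2 and with any library left out. Against FAK-kd cells it was lost in DESeq2 (adjusted p = 0.215) and without FAK-WT or FAK-kd replicate 2 or 3. Ntng2 was lost without FAK-kd replicate 1. Sema6c was lost in DESeq2 (adjusted p = 0.203) and without FAK-WT replicate 2 or 3 or FAK-kd replicate 2. Robo3 had no adjusted p in DESeq2 and was lost with any FAK-WT or FAK-kd replicate left out. The median log2 fold changes over the 9 genes of this list that averaged at least 1 CPM were -0.51, -0.22 and -0.29 in the order FAK-WT over FAK-/-, FAK-WT over FAK-kd and FAK-kd over FAK-/-, against -0.02, -0.02 and 0.01 for all genes of that level. The count higher than in FAK-/- cells was 2 without FAK-WT replicate 2, any FAK-/- replicate or FAK-kd replicate 1, and the count lower in FAK-kd than in FAK-/- cells was 2 without FAK-kd replicate 3. Against FAK-kd cells, 1 was higher without FAK-WT replicate 2 or 3 or any FAK-kd replicate and 2 without FAK-WT replicate 1. There 0 were lower without FAK-WT replicate 2 or FAK-kd replicate 2, and 1 without FAK-/- replicate 1 or 2 or FAK-kd replicate 3.

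The intracellular effectors of guidance receptors, such as collapsin response mediators, GTPase regulators and adaptor kinases, were read next. Of 59 listed, 57 were in the table and 49 averaged at least 1 CPM, and Crmp1, a collapsin response mediator with 0 counts in FAK-WT against 21 in FAK-/- and 1 in FAK-kd libraries, was the 1 call in FAK-WT against FAK-/- cells and in FAK-kd against FAK-/- cells, lower in both. That is 1.75% of the list in each, against 3.06% and 1.09% of all genes. Crmp1 was named after its values were seen, it had no adjusted p in DESeq2, and the first call was lost without FAK-WT replicate 2 or 3 or FAK-/- replicate 2, and the second without FAK-/- replicate 1 or 2 or any FAK-kd replicate, and in a fit of the groups compared alone. The count lower in FAK-WT against FAK-/- cells was 2 without FAK-WT replicate 1 or FAK-/- replicate 1, 0 without FAK-WT replicate 2 or 3, and without FAK-/- replicate 2 it was 1, a gene other than Crmp1. The list had 0 higher genes in any comparison and 0 lower in FAK-WT than in FAK-kd cells in edgeR, and 0 in DESeq2. At an unadjusted p under 0.05, 5 were higher and 22 lower for FAK-WT against FAK-/-, 3 and 12 for FAK-WT against FAK-kd, and 5 and 11 for FAK-kd against FAK-/- cells. As shares of the list these were 8.77% and 38.6%, 5.26% and 21.1%, and 8.77% and 19.3%, where all 19044 genes gave 13.4% and 15.6%, 13% and 15.5%, and 10.2% and 10.3%, and the genes averaging at least 1 CPM 18.5% and 23.8%, 17.8% and 23.9%, and 15.5% and 14.4%. The medians over the 49 genes were -0.10, -0.07 and -0.02 in the order used above.

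Of 12 ligands and receptors that share neuropilins or Eph partners with the members, 10 were in the table and 6 averaged at least 1 CPM, with medians of -0.34, -0.16 and -0.25. In FAK-WT cells 0 were higher in edgeR and in DESeq2 (1 at an unadjusted p under 0.05) and 2 lower than in FAK-/- cells, with 1 in each direction for FAK-WT against FAK-kd, and 1 higher and 2 lower for FAK-kd against FAK-/- cells. As shares of the 10 genes the edgeR counts were 0% and 20%, 10% and 10%, and 10% and 20%. All genes gave 2.32% and 3.06%, 2.37% and 2.89%, and 0.914% and 1.09%. The 1 gene at an unadjusted p was 10%, against 13.4% of all genes. Pgf, a VEGF relative that binds Nrp1, was at 3.78, 8.54 and 8.91 CPM in FAK-WT, 27.0, 26.4 and 25.5 CPM in FAK-/- and 11.2, 13.3 and 13.5 CPM in FAK-kd libraries. Every FAK-/- library was above every other library, with -1.63 ± 0.13 (adjusted p = 2.73e-07) for FAK-WT and -1.05 ± 0.11 (adjusted p = 2.3e-05) for FAK-kd over FAK-/- cells in edgeR, the second being -0.98 without FAK-kd replicate 1 and -0.997 with the GC correction. Adgrl3, an adhesion receptor that binds FLRT proteins, which also bind Unc5 receptors, was at 13.8, 14.9 and 13.9 CPM in FAK-WT, 35.9, 41.2 and 34.4 CPM in FAK-/- and 29.7, 31.1 and 33.9 CPM in FAK-kd libraries. The FAK-WT libraries were lowest, with -1.37 ± 0.11 (adjusted p = 3.36e-07) and -1.14 ± 0.11 (adjusted p = 2.53e-06) against FAK-/- and FAK-kd cells. Vegfc, which binds Nrp2, was higher in FAK-kd than in FAK-/- cells on 39 against 3 counts, at 3.38 ± 0.80 (adjusted p = 0.0168), and this was lost without FAK-kd replicate 2 (3.19, adjusted p = 0.0694). Vegfc had no adjusted p in DESeq2 and was removed by filterByExpr. L1cam, an adhesion molecule that pairs with Nrp1, was named after its values were seen and gave 2.33 ± 0.59 (adjusted p = 0.0108) for FAK-WT over FAK-kd and -2.24 ± 0.56 (adjusted p = 0.0229) for FAK-kd over FAK-/- cells in edgeR. The first was lost without FAK-WT replicate 3 or FAK-kd replicate 3, and the second without FAK-/- replicate 1 or 2 or FAK-kd replicate 1 or 3, and in DESeq2 neither was made (adjusted p = 0.0621 and 0.0776).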

How the data were processed

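RNA of 9 libraries of SCC cells (3 each of FAK-WT, FAK-/- and FAK-kd) had been sequenced in paired ends from a TruSeq kit that does not mark strand. The authors quantified transcripts with kallisto 0.43.1 on the mouse genome GRCm38 (mm10) and deposited estimated counts per gene, summed with tximport, as whole numbers. The transcriptome release is not given in the sources used here. Symbols and transcript lengths came from the GENCODE annotation of GRCm38, and 18856 of 19044 identifiers had a symbol. All genes were fitted without a filter in edgeR 4.0.16 (TMM factors, quasi-likelihood F test, group as the term, all 9 libraries), in R 4.3.3, with Benjamini-Hochberg adjustment across every gene. The standard error is the log2 fold change divided by the root of F. The fit had been tested on counts simulated with the same spread for all genes. Changes were set only in genes of at least 1 CPM, so recovery of rarer genes was not tested. Alternatives used DESeq2 1.42.0, edgeR's glmTreat, other scalings and filters, and the libraries left out in turn. Reads from near-identical genes may be split by the authors' quantification. Fewer than 5% of the 31-base words of any member's transcripts occurred in another gene, the most in Epha1 (4.43%) and Plxna2 (2.24%).

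Every member was accounted for. Those past the threshold in at least 1 comparison were given with all libraries, along with those of highest level per kilobase in each family. Of other lists, genes past the threshold with at least 10 counts in every library of 1 group were named. The members and lists were chosen with earlier results of these data known. Counts in the libraries limit precision as given for each value, and intervals cover counting error only.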

Additional observations from a re-analysis of the deposited data

How the results depend on the processing

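Of the 31 calls over the members and 3 comparisons, all kept their direction in every alternative that tested them. With DESeq2 size factors or library size alone in edgeR 31 were kept, after filterByExpr 27 of 28, with DESeq2 23 of 30 (Epha3 had no adjusted p there), with only the groups compared 29, with glmTreat against a log2 fold change of 1 12, and with the correction for GC content, which was chosen after seeing the data, 27. Those kept with glmTreat included both FAK-WT calls of Nrp1, Robo2, Efna2 and Sema6a. The others were both Sema3d calls and those of Ephb6 and Ntn4 in FAK-WT against FAK-kd cells. Leaving out 1 library kept between 21 and 29 of the 31 calls. The members higher in FAK-WT against FAK-/- cells (5) became 3 after filterByExpr, 3 with DESeq2, 1 with glmTreat and 3 to 5 with a library left out, and those lower (10) became 17 with the adjusted p alone, 4 with glmTreat and 6 to 10 with a library left out. Those higher in FAK-WT than in FAK-kd cells (5) became 1 with glmTreat and 3 to 6 with a library left out, and those lower (5) became 16 with the adjusted p alone and remained 5 in number with any library left out. Those higher in FAK-kd than in FAK-/- cells (2) became 4 with the adjusted p alone, 0 with glmTreat and stayed 2 with any library left out, and those lower (4) became 2 with DESeq2, 7 with the adjusted p alone, 1 with glmTreat and 2 to 4 with a library left out. Requiring 10 counts in every library left 8083 genes and 21 members to test, because FAK-WT replicate 1 was shallow, and gave 1 higher and 1 lower against FAK-/- cells, 1 higher and 0 lower against FAK-kd cells, and 0 in either direction between FAK-kd and FAK-/- cells. Libraries with the same replicate number did not deviate together (r from -0.0437 to 0.0466 over 9 pairs), so no pairing by number was seen. A check on 3 libraries per line, 1 of them shallow, cannot exclude pairing. With the replicate number as a replicate block the counts were 4 higher and 9 lower than in FAK-/- cells, 4 and 5 against FAK-kd, and 2 and 4 between FAK-kd and FAK-/-. Sema4a against FAK-kd (adjusted p = 0.0614), Sema3f (0.0717) and Epha3 (0.0878) were not called there in edgeR. Members at a few counts, such as Sema4f, Plxnb3, Plxnc1, Epha7 and Slit3, could not be compared at this depth, and in FAK-WT replicate 1 any gene under 3.78 CPM could not be told from absence.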
